A study of Homo sapiens with 12 samples.

Results

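The germ cell gene TEX19 and 9 other genes that are normally active in germ cells were described over 4 groups of arrays from cell lines labelled as multiple myeloma. The members were the probe sets naming TEX19, PRAME, MAEL, DAZL, DDX4, SYCP3, PIWIL2, TDRD9, DPPA4 or TEX101 alone: 15 probe sets for 10 genes, of 54613 probe sets and 19775 genes measured. TEX19 was selected on its own values, its opposite changes with the sponge in the 2 lines, and the other 9 genes for their function, to ask whether they follow it. Of the members, 7 had a single probe set, TEX19 among them. The groups, with 3 arrays each, were MMS1 cells with a miR-16 sponge, MMS1 cells with a control sponge, RPMI8226 cells with a miR-16 sponge and RPMI8226 cells with a control sponge. The labels call the sponge groups miR16 KO or miR16 knock down, and give the line RPMI8226 as RPMI or RPMI826. All 4 groups were stably transduced, GFP-carrying cells that had been sorted and expanded, so each group is a selected population, and no label ties the replicates to separate transductions. A sponge is a transcript with many binding sites for a microRNA, which draws it away from its targets, and the study used it to imitate the lowered miR-16 of myeloma with a 13q deletion. All p-values rest on the spread among these arrays, which may be technical.

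Germ cell genes are expressed in the ovary and testis and, for some, in pluripotent cells and tumours. In most other cells their promoters are silenced by DNA methylation, together with repressor complexes that include E2F6 and MGA. Many encode proteins of meiosis or of the piRNA pathway, in which PIWI proteins and small RNAs hold transposable elements in check. TEX19 is found in mammals, and its counterparts in mouse are needed for spermatogenesis and for limiting retrotransposons.

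The microRNA that the sponge was built to bind and a few of the promoters concerned are shown first. The mature miR-16 sequence, from RefSeq (GRCh38.p14, MIR16-1 at chr13:50049027-50049048 on the minus strand and MIR16-2 at chr3:160404754-160404775 on the plus strand), is given with its seed, bases 2 to 8, in capitals, since this is the stretch by which it pairs with its targets.
hsa-miR-16-5p: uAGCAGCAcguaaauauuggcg
The 250 bases before an annotated start, from RefSeq (GRCh38.p14), are given for 2 members, PRAME and DAZL, and for the meiosis genes TEX11 and MEIOC, which fell in MMS1 as described later. Each CG pair, the site of DNA methylation, is in capitals, because DNA methylation is the mark that these genes are known for. DAZL has 28 such pairs in this stretch and MEIOC has 27, against 9 each in PRAME and TEX11.
PRAME, chr22:22559266-22559515, minus strand: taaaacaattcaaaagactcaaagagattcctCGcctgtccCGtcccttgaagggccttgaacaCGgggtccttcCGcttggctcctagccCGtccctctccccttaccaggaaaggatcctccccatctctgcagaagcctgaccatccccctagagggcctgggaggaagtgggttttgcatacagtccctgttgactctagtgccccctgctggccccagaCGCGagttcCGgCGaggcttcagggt
DAZL, chr3:16605424-16605673, minus strand: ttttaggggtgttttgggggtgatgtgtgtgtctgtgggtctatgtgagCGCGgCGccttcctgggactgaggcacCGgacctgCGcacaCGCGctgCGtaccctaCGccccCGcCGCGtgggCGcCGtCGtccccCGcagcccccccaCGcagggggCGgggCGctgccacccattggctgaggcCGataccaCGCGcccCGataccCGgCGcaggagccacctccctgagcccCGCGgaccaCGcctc
TEX11, chrX:70908712-70908961, minus strand: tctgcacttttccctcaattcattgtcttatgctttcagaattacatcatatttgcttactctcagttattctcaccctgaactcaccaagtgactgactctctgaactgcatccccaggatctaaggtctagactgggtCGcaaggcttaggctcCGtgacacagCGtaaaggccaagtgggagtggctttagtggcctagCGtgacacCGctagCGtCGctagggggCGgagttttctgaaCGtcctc
MEIOC, chr17:44656218-44656467, plus strand: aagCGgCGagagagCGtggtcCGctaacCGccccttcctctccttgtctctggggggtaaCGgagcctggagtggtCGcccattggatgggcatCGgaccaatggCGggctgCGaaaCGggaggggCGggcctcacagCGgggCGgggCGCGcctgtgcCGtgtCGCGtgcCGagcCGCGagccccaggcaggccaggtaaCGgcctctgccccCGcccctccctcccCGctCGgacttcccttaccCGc

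Of the 10 members, 8 were matched to the promoter table, with 13 windows of 300 bases. In the first window listed for each gene the count of CG pairs was 60 for MAEL, 41 for TDRD9, 33 for DAZL, 24 for SYCP3, 13 for PRAME, 5 for DPPA4, 3 for TEX101 and 1 for DDX4, against a median of 14 over 35116 windows. The members thus ran from CG-poor to CG-rich in these first windows. Further windows listed for the same genes held 27 for MAEL, 29 for DAZL, 19 for TEX101, and 12 and 4 for PRAME. The letters CACGTG, the same on both strands and known as the site of MAX with its partners, among them MGA, stood in 2 of the 13 windows (the second windows of MAEL and DAZL) and in 7.26% of all windows. The letters GGCGGGAA or, on the other strand, TTCCCGCC, an E2F motif, stood in 1 of the 13 (TDRD9) and in 3.16% of all windows. These are matches of letters, and no binding or methylation was measured.

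Values are log2 signals with a lower bound of 4, so 1 unit is a doubling of signal. The array medians lay between 5.80 and 5.90. In its 18S ribosomal RNA control probes, MMS1 miR-16 sponge replicate 1 stood apart, at 7.84 against 9.56 to 11.14 on the other 11 arrays. Of the plasma cell markers, TNFRSF17 and JCHAIN lay near the lower bound on all 12 arrays, from 4.0 to 4.74 and from 4.0 to 4.71, while SDC1 ran from 8.60 to 9.35, XBP1 from 8.29 to 8.78 and CD79A from 8.08 to 8.43. CD38 (4.29 to 5.33) and POU2AF1 (4.65 to 5.71), of the same list, were low as well. Of the erythroid genes, the embryonic globin genes HBE1 and HBZ ran from 13.8 to 14.4 and from 12.05 to 14.13. GATA1 ran from 9.27 to 9.84 and AHSP from 5.05 to 5.91. Of the 13 measured erythroid genes 12 had a mean above 5.83, the median of all probe sets, against 7 of the 13 plasma cell genes. The names MMS1 and RPMI8226 are those of the labels, and the identity of the lines was not settled by these markers. Of 13 plasma cell genes 0 passed the test in either line with the sponge (limma, adjusted p under 0.05; 1 in each line at an unadjusted p under 0.05), and of 13 measured erythroid genes 5 rose and 4 fell in MMS1 and 2 rose and 1 fell in RPMI8226. Over all probe sets 10.3% passed in MMS1 and 0.196% in RPMI8226. The erythroid genes that passed in RPMI8226 were the globin genes HBB, HBD and HBE1. HBB and HBD rose by 3.16 and 1.91 there (adjusted p = 2.84e-09 and 3.34e-07), and by 2.91 and 1.39 in MMS1 (adjusted p = 1.06e-09 and 5.61e-07). HBE1 fell by 0.49 in RPMI8226 (adjusted p = 0.0460), a call lost under 14 alternatives. The mean level of the erythroid list was 9.33 to 9.44 in MMS1 miR-16 sponge arrays, 9.27 to 9.33 in MMS1 control arrays, 10.06 to 10.11 in RPMI8226 miR-16 sponge arrays and 9.67 to 9.72 in RPMI8226 control arrays. The part of these differences in the results on germ cell genes was not tested.

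TEX19 moved in opposite directions with the sponge in the 2 lines. In MMS1 its log2 signal was 7.90, 7.76 and 7.74 in the miR-16 sponge arrays, against 11.95, 11.90 and 11.97 in the control arrays. All 3 sponge arrays lay below all 3 control arrays, and the groups averaged 7.80 ± 0.08 and 11.94 ± 0.04 (SD, n = 3 each). The estimated log2 change came to -4.13 (standard error 0.09), which is 17.6-fold lower. In RPMI8226 it was 10.09, 10.03 and 9.90 in the miR-16 sponge arrays, against 8.22, 8.25 and 8.30 in the control arrays. Here all 3 sponge arrays lay above all 3 controls, with means of 10.01 ± 0.10 and 8.26 ± 0.04 and an estimated change of 1.75 (standard error 0.09), which is 3.36-fold higher. These values chose TEX19, so they are a description and no test of them is given. Since cells were pooled in each array, a smaller share of cells with TEX19 RNA and less TEX19 RNA per cell cannot be told apart.

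In order of level, TEX19 was highest in MMS1 control arrays, then in RPMI8226 miR-16 sponge arrays, then in RPMI8226 control arrays and lowest in MMS1 miR-16 sponge arrays. No neighbouring groups in this order overlapped, although the last pair lay close together: the lowest RPMI8226 control array was at 8.22 and the highest MMS1 sponge array at 7.90. Between lines, RPMI8226 minus MMS1 came to 2.21 among miR-16 sponge arrays and to -3.68 among control arrays. Over all 54613 probe sets, 348 had a log2 change below -1 in MMS1 and 18 a change above 1 in RPMI8226, and the TEX19 probe set was the 1 with both. Opposite changes the other way round, above 1 in MMS1 and below -1 in RPMI8226, were seen in 2 probe sets. By the size of its estimate TEX19 was the third lowest of 19775 genes in MMS1 and the fifth highest in RPMI8226. The plot of the 10 genes by array shows these levels beside those of the other members.

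**Figure D1:**
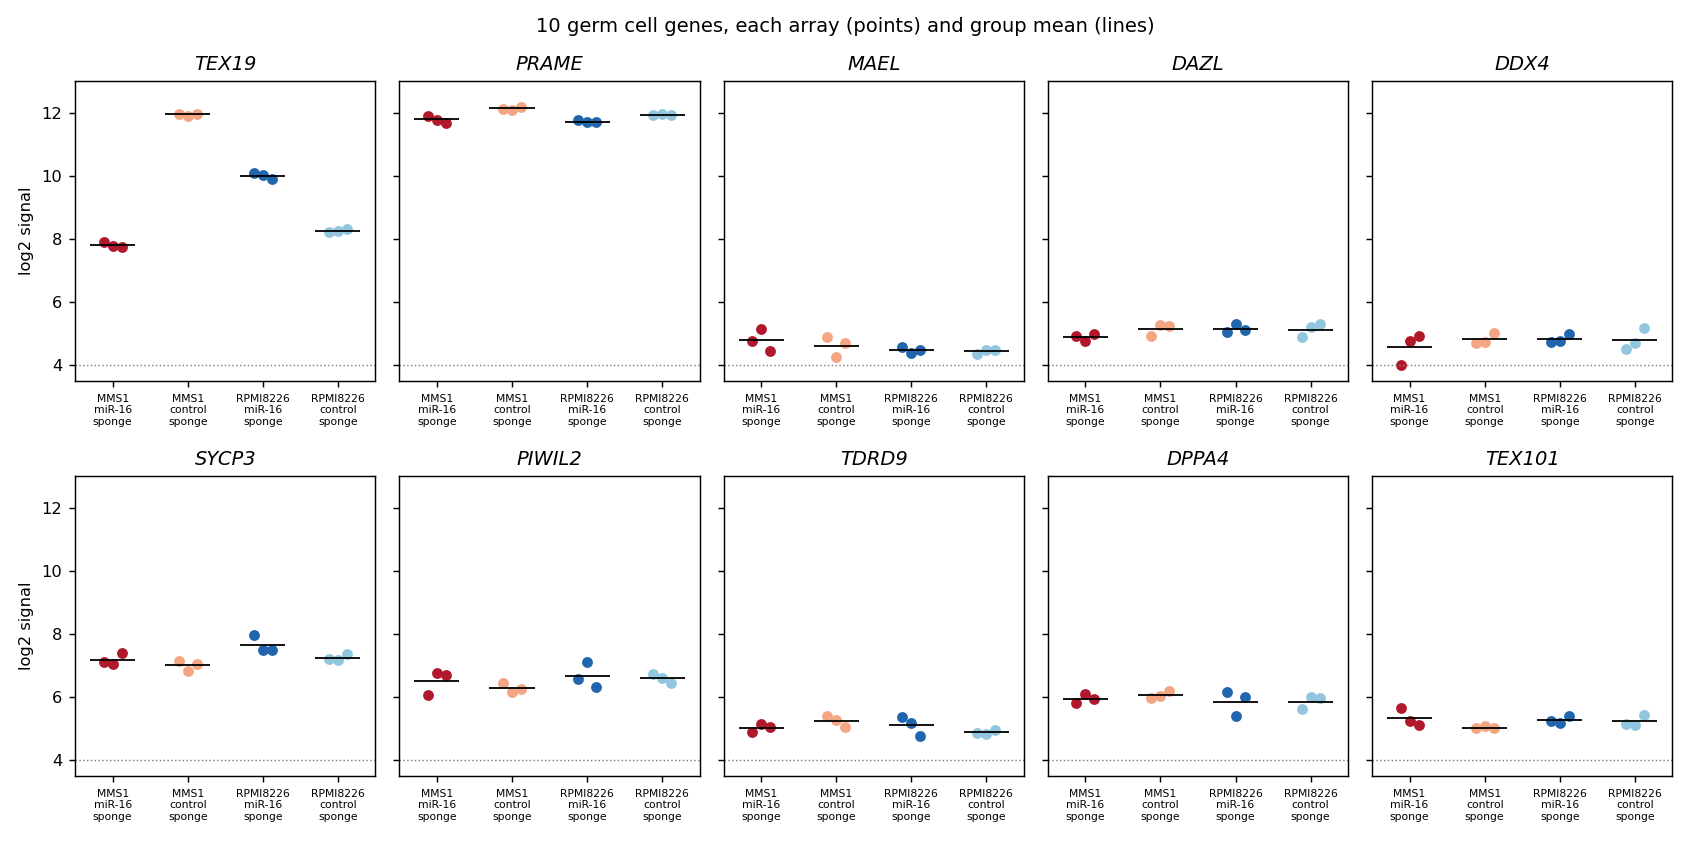
Log2 signal (vertical axis, dotted line at the lower bound of 4) of 10 germ cell genes in MMS1 miR-16 sponge, MMS1 control sponge, RPMI8226 miR-16 sponge and RPMI8226 control sponge arrays, 1 point per array and a line at the mean of 3; for genes with several probe sets the one with the highest mean is plotted. TEX19 spans 7.74 to 11.97, while no other gene spans more than 1.16.

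Over the 12 arrays each of the 9 other genes spanned 0.52 to 1.16 log2 units, against 4.22 for TEX19. In MMS1 0 of these 9 rose and 1 fell (PRAME). The test was limma's, with p-values adjusted by Benjamini-Hochberg across all probe sets and calls under 0.05, and 10.3% of all probe sets passed it in MMS1, 4.20% as higher and 6.11% as lower. In RPMI8226 0 of the 9 passed in either direction, where 0.196% of all probe sets did (0.0238% as higher and 0.172% as lower), and 2 had an unadjusted p under 0.05. The share of all probe sets in RPMI8226 moved with single arrays: leaving out MMS1 miR-16 sponge replicate 1 turned 13 higher and 94 lower into 84 and 639, and 0 of the 9 passed there as well. The log2 changes of the 9 ran from -0.35 to 0.30 in MMS1, with a median of -0.11 (-0.022 over all probe sets), and from -0.21 to 0.39 in RPMI8226, with a median of 0.04 (-0.016 over all). Their 95% intervals reached -0.74 in MMS1 and 0.71 in RPMI8226, short of the TEX19 changes of -4.13 and 1.75. In MMS1 control arrays, however, all of the 9 but PRAME averaged only 4.62 to 7.01. With the lower bound of 4, a fall as large as that of TEX19 could not have shown in them. The MMS1 values therefore cannot tell whether these genes follow TEX19 in size. In their main probe sets the estimates of 3 genes, DAZL, DDX4 and TDRD9, were below 0 in MMS1 and above 0 in RPMI8226, as for TEX19. None of the 3 passed in either line. The second probe sets of PIWIL2 (-0.18 and 0.16) and SYCP3 (-0.01 and 0.19) had the same signs and did not pass.

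PRAME, a tumour antigen of testis that can repress retinoic acid signalling, was bright in all groups. In MMS1 it stood at 11.90, 11.78 and 11.67 in miR-16 sponge arrays, against 12.12, 12.09 and 12.19 in control arrays. The groups did not overlap, as for 15.2% of all probe sets in this direction, and PRAME fell by 0.35 (adjusted p = 0.0295). In RPMI8226 it stood at 11.76, 11.69 and 11.70 in sponge arrays, against 11.91, 11.95 and 11.92 in control arrays, a change of -0.21 that did not pass (adjusted p = 0.344). PRAME thus lay lower with the sponge in both lines, where TEX19 lay lower in one and higher in the other. The difference between its changes was 0.14 and did not pass (95% interval -0.15 to 0.43, adjusted p = 0.639). The MMS1 call ended when any 1 MMS1 control array, or miR-16 sponge replicate 2 or 3 of MMS1, was left out (adjusted p = 0.0614 to 0.108).

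MAEL, PIWIL2, TDRD9 and DDX4 act in or beside the piRNA pathway: PIWIL2 is a PIWI protein, TDRD9 and DDX4 are RNA helicases and MAEL is needed for silencing transposable elements in mouse. MAEL, with 1 probe set, was at 4.76, 5.13 and 4.46 in MMS1 miR-16 sponge arrays, against 4.89, 4.27 and 4.69 in MMS1 control arrays. In RPMI8226 it was at 4.58, 4.37 and 4.47 in sponge arrays, against 4.34, 4.47 and 4.49 in control arrays. The groups of either line overlapped, near the lower bound of 4 throughout.

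DDX4 was at 4.01, 4.76 and 4.91 in MMS1 miR-16 sponge arrays, against 4.70, 4.73 and 5.03 in MMS1 control arrays, and between 4.51 and 5.17 in RPMI8226. Its lowest value came from MMS1 miR-16 sponge replicate 1, the array that stood apart in its 18S probes. TDRD9 was at 4.91, 5.15 and 5.04 in MMS1 miR-16 sponge arrays, against 5.41, 5.28 and 5.06 in MMS1 control arrays, a change of -0.21 (adjusted p = 0.445). In RPMI8226 it was at 5.36, 5.19 and 4.77 in sponge arrays, against 4.86, 4.84 and 4.97 in control arrays, a change of 0.21 (adjusted p = 0.566). Its groups overlapped in both lines.

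PIWIL2 had 3 probe sets that differed among themselves. The brightest gave a change of 0.20 in MMS1, with adjusted p = 0.634, and of 0.08 in RPMI8226, with adjusted p = 0.912, and the second gave -0.18 and 0.16. The dimmest stood at 4.68, 4.21 and 4.37 in RPMI8226 miR-16 sponge arrays, against 5.01, 5.23 and 5.0 in RPMI8226 control arrays. These groups did not overlap, as for 14.6% of all probe sets in this direction, and the change of -0.66 did not pass (unadjusted p = 0.00694, adjusted p = 0.184). In this probe set the sponge arrays of RPMI8226 were the lower ones, opposite to TEX19.

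Among the genes of meiosis and germ cell identity, SYCP3, a protein of the axes of paired chromosomes, was the only one of the 9 besides PRAME with groups apart in RPMI8226 in its main probe set. It stood at 7.97, 7.49 and 7.48 in RPMI8226 miR-16 sponge arrays, against 7.21, 7.19 and 7.37 in RPMI8226 control arrays, a change of 0.39 that did not pass (unadjusted p = 0.0223, adjusted p = 0.275; 7.27% of all probe sets had groups apart in this direction). In MMS1 it stood at 7.11, 7.06 and 7.41 in sponge arrays, against 7.14, 6.84 and 7.06 in control arrays. Its second probe set lay between 4.0 and 4.69 on all arrays and gave -0.01 in MMS1 and 0.19 in RPMI8226. DAZL, which binds RNA and controls its translation in germ cells, stood at 4.93, 4.76 and 4.98 in MMS1 miR-16 sponge arrays, against 4.91, 5.27 and 5.24 in MMS1 control arrays, a change of -0.25 (adjusted p = 0.321). Its change in RPMI8226 was 0.03.

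TEX101, a surface protein of germ cells, stood at 5.67, 5.24 and 5.11 in MMS1 miR-16 sponge arrays, against 5.01, 5.08 and 5.02 in MMS1 control arrays. The groups were apart, as for 11.6% of all probe sets in this direction, and the change of 0.30 did not pass (adjusted p = 0.239), with the highest value again from MMS1 miR-16 sponge replicate 1. DPPA4, a chromatin protein of pluripotent cells and early germ cells, had 3 probe sets with changes of -0.18, -0.11 and 0.03 in MMS1 and of -0.01, -0.01 and 0.35 in RPMI8226, none of which passed. In all, 6 of the 9 genes had a mean under 6 in their main probe set. Of the 15 probe sets of the members, 5 had a mean above 5.83, the median of all probe sets: those of TEX19 and PRAME and 1 each of SYCP3, PIWIL2 and DPPA4.

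**Figure D2:**
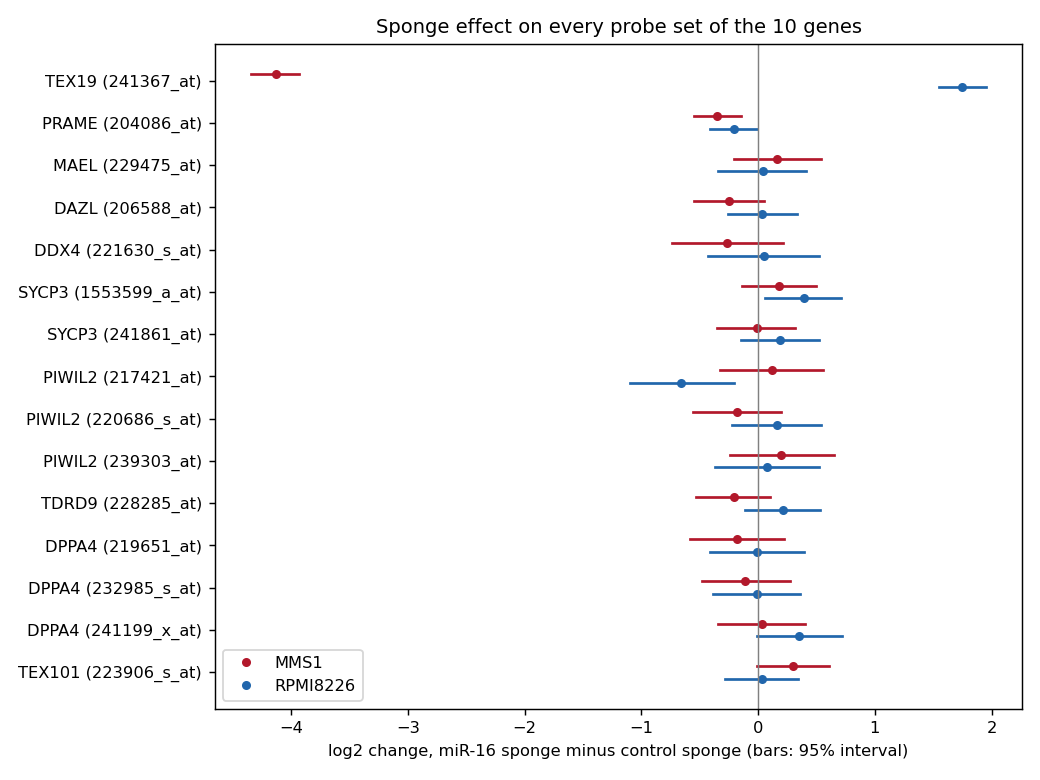
Log2 change, miR-16 sponge minus control sponge (horizontal axis), of all 15 probe sets of the 10 genes in MMS1 and RPMI8226, with points at the estimate and bars for the 95% interval from limma. TEX19 lies at -4.13 and 1.75, and the other 14 probe sets lie between -0.66 and 0.39.

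Of the 9 genes, 0 passed between the sponge arrays of RPMI8226 and MMS1, where 17.7% of all probe sets passed, and 0 between the control arrays, where 8.18% passed. At an unadjusted p under 0.05 these counts were 1 and 2. The largest change was 0.45 for SYCP3 between the sponge arrays (adjusted p = 0.0537), which passed at adjusted p = 0.0340 once MMS1 miR-16 sponge replicate 3 was left out. In the difference of sponge effects between lines, 0 of the 9 passed (0 at an unadjusted p under 0.05), where 5.10% of all probe sets did. The 4 group means of 774 genes, or 3.91%, had the order seen in TEX19, and 0 of the 9 were among them. Of 90 further germline genes, described next, 7 had group means in that order (7.78%): the meiosis genes SYCP1, SYCE2, SYCE3 and TEX12, with BRDT, NANOS3 and MAGEB4. In all 7 neighbouring groups overlapped somewhere in the order.

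Germline genes beyond the members were counted in 5 lists, which together hold 90 measured genes that are no members. In MMS1 4 of the 90 rose and 9 fell, which is 4.44% and 10%, while 4.20% and 6.11% of all probe sets did so. Those shares include many dim probe sets, while each of the 90 genes is represented by its brightest probe set. The percentages are therefore not like for like, and no excess was tested. In RPMI8226 0 of the 90 passed in either direction (17 at an unadjusted p under 0.05). The median change of the 90 was -0.06 in MMS1 and 0.01 in RPMI8226. The same shares of all probe sets, with 0.196% in RPMI8226, stand beside the counts of each list that follows.

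Meiosis genes gave most of the falls. Of 23 measured meiosis genes other than SYCP3, 0 rose and 5 fell in MMS1 (median change -0.16), and 0 passed in RPMI8226 (3 at an unadjusted p under 0.05). TEX11, which supports crossing over between chromosomes, stood at 6.30, 6.64 and 6.42 in MMS1 miR-16 sponge arrays, against 8.77, 8.48 and 8.70 in MMS1 control arrays, and fell by 2.20 (adjusted p = 6.82e-08). All 3 of its probe sets fell. MEIOC, needed in mouse for germ cells to enter the extended meiotic prophase, stood at 4.0, 4.83 and 4.02 in MMS1 miR-16 sponge arrays, against 6.91, 6.64 and 7.22 in MMS1 control arrays, and fell by 2.64 (adjusted p = 3.73e-06). Its sponge arrays lay at or near the lower bound, so its fall is bounded by that limit, and 1 of its 5 probe sets passed. SYCE1 and SYCE2, both of the central element that joins paired chromosomes, fell by 2.01 and 0.66 (adjusted p = 7.88e-05 and 0.00207). The remaining one, SPATA22, a factor of meiotic recombination named here because its values were seen, fell by 0.55 (adjusted p = 0.0240).

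In RPMI8226 the same 4 genes were nearly level, which is where they part from TEX19. TEX11 stood at 8.28, 8.19 and 8.12 in RPMI8226 miR-16 sponge arrays, against 8.37, 8.30 and 8.41 in RPMI8226 control arrays, a change of -0.17 (adjusted p = 0.570). MEIOC gave -0.01, SYCE1 -0.12 and SYCE2 0.08. The sponge effects of all 4 differed between the lines by limma's interaction test (RPMI8226 minus MMS1, 2.03 for TEX11, 2.63 for MEIOC, 1.89 for SYCE1 and 0.74 for SYCE2, with adjusted p = 1.02e-05, 0.000192, 0.00404 and 0.0175). These 4 were named for the smallest p in MMS1, and the difference contains that same MMS1 change. The interaction p-values are thus not independent of the choice of genes. For TEX11 and MEIOC the MMS1 sponge arrays lay below all arrays of the other 3 groups. Among those 3 groups the MEIOC values overlapped, while for TEX11 they did not, with RPMI8226 sponge arrays below RPMI8226 controls and both below MMS1 controls.

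Cancer testis antigens, tumour antigens whose normal expression is mostly in testis, moved both ways in MMS1. Of 31 measured genes other than PRAME, 2 rose and 3 fell there (median -0.01), and 0 passed in RPMI8226 (9 at an unadjusted p under 0.05). PASD1, a nuclear protein first described as a lymphoma antigen, stood at 6.86, 6.81 and 6.77 in MMS1 miR-16 sponge arrays, against 8.85, 8.77 and 8.87 in MMS1 control arrays, and fell by 2.02 (adjusted p = 1.35e-07). In RPMI8226 it stood at 6.45, 6.4 and 6.42 in sponge arrays, against 5.90, 5.96 and 6.33 in control arrays, a change of 0.36 that did not pass (adjusted p = 0.188). Of the 9 further germline genes that fell in MMS1, 1 (PASD1) had groups apart as higher in RPMI8226 and 4 (TEX11, MAGEA1, DND1 and ACRBP) had groups apart as lower, against 7.27% and 14.6% of all probe sets. MAGEA1 fell by 0.54 (adjusted p = 0.00427), and ACRBP, a protein of the sperm acrosome named here because its values were seen, fell by 0.46 (adjusted p = 0.00670).

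MAGEC2 and MAGEB1, of the MAGE family of ubiquitin ligase partners, went opposite to TEX19 in MMS1. MAGEC2 stood at 6.26, 6.14 and 6.12 in MMS1 miR-16 sponge arrays, against 4.38, 4.40 and 4.50 in MMS1 control arrays, and rose by 1.75 (adjusted p = 6.46e-08). In RPMI8226 it was between 6.67 and 7.02 on all arrays, so the MMS1 controls were the group that stood apart. Of its 2 probe sets 1 passed. MAGEB1 rose by 1.11 (adjusted p = 0.000247). Of the 48 genes in the antigen list, 16 had no probe set naming them alone and are not analysed here.

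**Figure D3:**
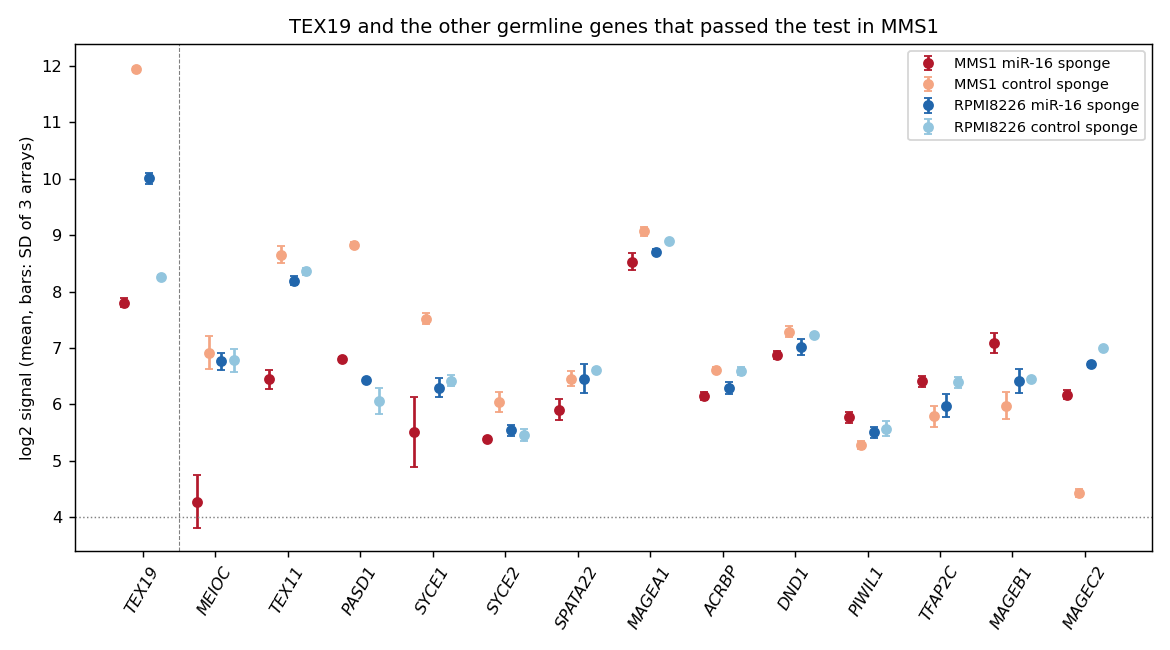
Log2 signal (vertical axis, mean with bars for the SD of 3 arrays, dotted line at the lower bound of 4) of TEX19 and of the 13 other germline genes that passed limma's test in MMS1, in MMS1 miR-16 sponge, MMS1 control sponge, RPMI8226 miR-16 sponge and RPMI8226 control sponge arrays. The 9 genes after TEX19 fell and the last 4 rose in MMS1, and 0 of the 13 passed in RPMI8226.

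Of 17 other piRNA pathway genes 1 rose and 0 fell in MMS1, and 0 passed in RPMI8226 (1 at an unadjusted p under 0.05). PIWIL1, another PIWI protein, rose by 0.50 in MMS1 (adjusted p = 0.00848), at 5.77 ± 0.10 in sponge arrays and 5.28 ± 0.07 in control arrays (SD, n = 3 each). TDRKH, TDRD12 and MYBL1 gave -0.29, 0.25 and 0.16 and did not pass. Of 14 other germ cell identity genes 1 rose and 1 fell in MMS1, and 0 passed in RPMI8226 (3 at an unadjusted p under 0.05). TFAP2C, a transcription factor of early germ cells, rose by 0.62 (adjusted p = 0.00760), but averaging its 2 probe sets gave 0.40 (adjusted p = 0.0702). DND1, which binds RNA in germ cells, fell by 0.41 (adjusted p = 0.0232), and lost its call when control replicate 1 or 3 or miR-16 sponge replicate 1 of MMS1 was left out (adjusted p = 0.0557 to 0.0927). Of the 2 DND1 probe sets 1 passed in MMS1. NANOS3 gave -0.37 and DPPA5 gave 0.48, and neither passed. Of 15 other genes reported, largely in mouse, to depend on DNA methylation, 0 rose and 2 fell in MMS1 (TEX11 and MAGEA1), and 0 passed in RPMI8226 (2 at an unadjusted p under 0.05).

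**Figure D4:**
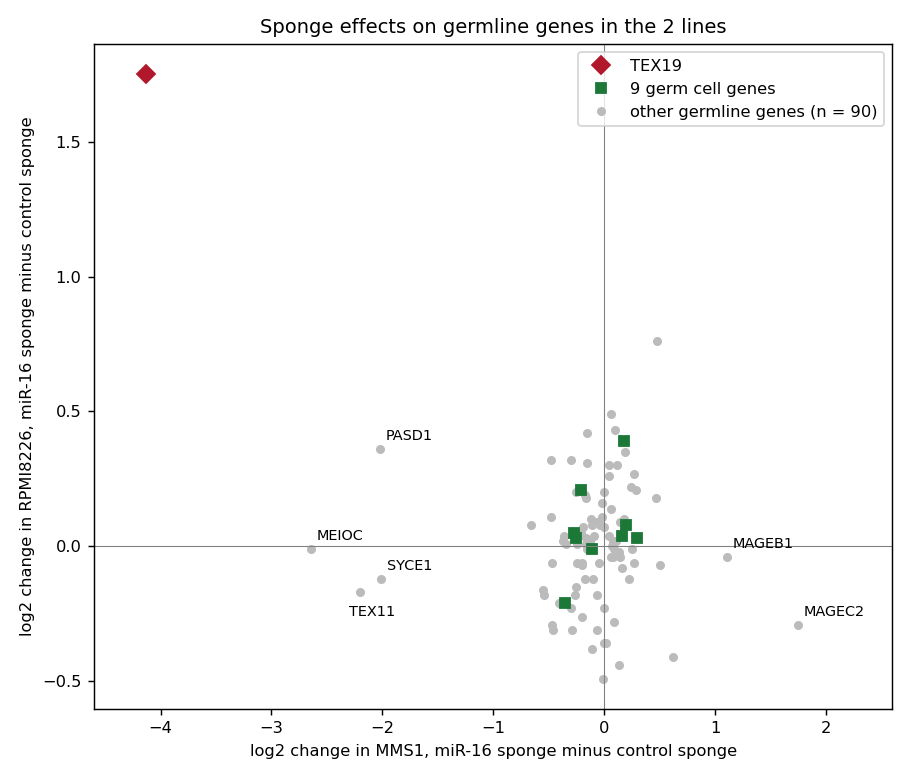
Log2 change, miR-16 sponge minus control sponge, in MMS1 (horizontal axis) and in RPMI8226 (vertical axis) for TEX19, the 9 other germ cell genes and 90 further germline genes, 1 point per gene. TEX19 lies alone at -4.13 and 1.75, and MEIOC, TEX11, PASD1 and SYCE1 lie below -2 in MMS1 with RPMI8226 changes between -0.17 and 0.36.

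Genes of the machinery that silences germline genes showed changes of under 1 log2 unit among those named, in the probe set that represents each gene. Of 17 DNA methylation genes, 2 rose and 5 fell in MMS1 (median -0.23) and 0 passed in RPMI8226 (3 at an unadjusted p under 0.05). Over all probe sets 4.20% rose and 6.11% fell in MMS1, and 0.196% passed in RPMI8226. Those shares include many dim probe sets, while 16 of these 17 genes and all 20 repressor genes below had means above the median of all probe sets. UHRF1, which guides DNMT1 to newly copied DNA, fell by 0.62 in MMS1 (adjusted p = 0.00235), with 7.39 ± 0.17 in sponge arrays and 8.01 ± 0.06 in control arrays. DNMT3L and TET1 fell by 0.56 and 0.52 (adjusted p = 0.0121 and 0.0129). The DNMT3L call ended when control replicate 1 of MMS1 was left out (adjusted p = 0.0608), and the TET1 call when control replicate 3 of MMS1 was (adjusted p = 0.0613), with only the MMS1 arrays (0.0543) and with the mean over its probe sets (0.0523). In contrast, the methyltransferase gene DNMT3B rose by 0.54 (adjusted p = 0.00472). Of 20 genes of repressor complexes, 1 rose and 3 fell in MMS1 (median 0.02) and 0 passed in RPMI8226 (5 at an unadjusted p under 0.05). RING1, a ubiquitin ligase, fell by 0.80 (adjusted p = 0.000206), and MAX fell by 0.53 (adjusted p = 0.00810). Of the 5 MAX probe sets 2 passed, with changes from -0.53 to -0.07 over the 5. CBX3, which binds methylated histone H3, rose by 0.62 (adjusted p = 0.00532), and all 4 of its probe sets rose, by 0.62 to 1.07. HDAC1 fell by 0.35 (adjusted p = 0.0314), and this call ended when any 1 MMS1 control array, or miR-16 sponge replicate 2 or 3 of MMS1, was left out (adjusted p = 0.0626 to 0.118). The part of these changes in the TEX19 values was not tested.

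Markers of other cells that express some of these genes were counted as well. Of 15 pluripotency genes other than DPPA4, 1 rose and 2 fell in MMS1 (DNMT3L and NANOG), and 0 passed in RPMI8226 (2 at an unadjusted p under 0.05). The transcription factor gene NANOG fell by 0.56 (adjusted p = 0.0449) and lost its call under 10 alternatives, among them leaving out control replicate 1 or 2 or miR-16 sponge replicate 1 or 3 of MMS1 (adjusted p = 0.0523 to 0.162 over the 10). ZFP42, a marker of embryonic stem cells, stood at 8.59, 8.26 and 8.52 in MMS1 miR-16 sponge arrays, against 5.67, 6.38 and 5.85 in MMS1 control arrays, and rose by 2.49 (adjusted p = 6.06e-07). It was between 9.03 and 9.34 in RPMI8226. In MMS1 2 of the 3 ZFP42 probe sets passed, with changes from 0.32 to 2.49 over the 3, and 1 of the 2 NANOG probe sets passed. Of 11 genes of somatic testis cells, 2 rose and 1 fell in MMS1 and 0 passed in RPMI8226 (4 at an unadjusted p under 0.05). Of 11 trophoblast genes, 0 passed in either line (2 in MMS1 and 1 in RPMI8226 at an unadjusted p under 0.05).

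TEX19 has as neighbours, in the gene table of GRCh38.p14, SECTM1, CD7 and LINC01970 on one side and UTS2R, LOC124904092 and OGFOD3 on the other. Of the 5 that were measured, 0 fell in MMS1, where 6.11% of all probe sets did, and 0 passed in RPMI8226, where 0.196% did. CD7, a surface protein of T cells, rose in MMS1 by 0.84 (adjusted p = 0.000597) in the brighter of its 2 probe sets, while 4.20% of all probe sets rose. That probe set averaged 6.81 ± 0.19 in MMS1 sponge arrays and 5.96 ± 0.15 in MMS1 control arrays (SD, n = 3 each), and gave 0.13 in RPMI8226. UTS2R and SECTM1, on either side of TEX19, gave -0.04 and 0.20 in MMS1 and 0.07 and 0.09 in RPMI8226.

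The genes with the profile most like that of TEX19 were ranked by the root mean square distance between log2 values over the 12 arrays, each gene centred on its own mean. The 8 closest of 19774 genes were LINC00462 (0.818), CHMP6 (0.824), CA1 (0.855), PLA2G2A (0.870), NSG1 (0.877), RAP1A (0.918), CXADR (0.932) and DNAJC15 (0.960), and 0 of these belong to the germline lists. For comparison, a gene with a flat profile would lie at 1.63, and the other 9 members lay between 1.52 and 1.73. Their ranks ran from 1562 for TDRD9 to 17397 for TEX101. The distance is not scaled, so a gene with a small range must lie near 1.63 whatever its shape. It therefore cannot tell whether the members share the shape of the TEX19 profile. The likeness lay mainly in the MMS1 controls. CHMP6, a subunit of the ESCRT complex for membrane scission, averaged 4.98 in MMS1 miR-16 sponge arrays and 7.65 in MMS1 control arrays, and 6.64 in RPMI8226 miR-16 sponge arrays and 6.2 in RPMI8226 control arrays. NSG1, a protein of neuronal endosomes, averaged 5.23 in MMS1 sponge arrays and 7.46 in MMS1 control arrays, and 6.62 in RPMI8226 sponge arrays and 5.99 in RPMI8226 control arrays. The RPMI8226 changes of the 8 ran from 0.15 for DNAJC15 to 0.64 for RAP1A, all above 0, and none passed (adjusted p = 0.150 to 0.664). The 8 were chosen by closeness over all 12 arrays, those of RPMI8226 included. Their signs in RPMI8226 and their high MMS1 controls were thus favoured by the choice. Besides TEX19, 13 genes had all 4 groups apart in the same order, CHMP6 among them, and 0 of the 9 members and 0 of the 90 further germline genes did.

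**Figure D5:**
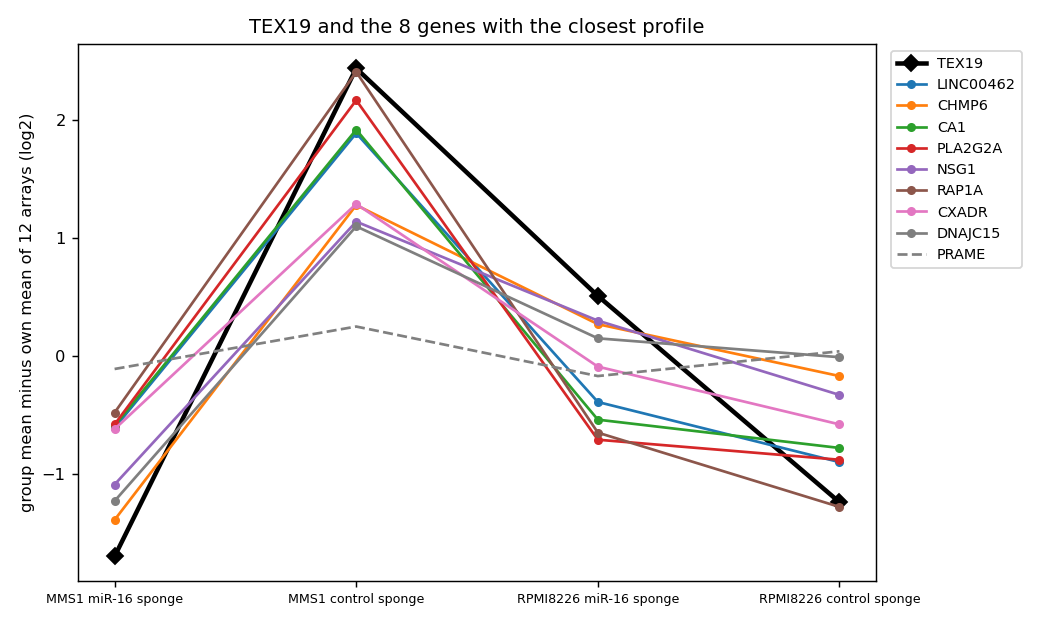
Group means minus the gene's own mean over 12 arrays (vertical axis, log2) for TEX19, its 8 closest genes and PRAME in MMS1 miR-16 sponge, MMS1 control sponge, RPMI8226 miR-16 sponge and RPMI8226 control sponge arrays; lines only join the 4 values of a gene. All 8 peak with TEX19 in the MMS1 controls, which their choice by closeness favoured, and PRAME stays within 0.25 of its mean.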

How the data were processed

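Affymetrix arrays of total RNA from 2 cell lines, 12 in all, were used. Each deposited value is a log2 signal of 1 probe set on 1 array; the authors' summarization and scaling are not given in the sources used here. Per the labels' protocols, RNA went through 2 rounds of linear amplification. No further normalization was applied. The test covered 54613 probe sets, without 62 control probe sets; 41091 named 1 gene through the platform annotation, 1801 several and 11721 none. Names were updated by identifier from a gene table of GRCh38.p14. A gene was represented by its probe set with the highest mean.

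A model with 1 mean per group was fitted in limma 3.58.1 under R 4.3.3 to all 12 arrays (8 residual and 4.92 prior degrees of freedom), with Benjamini-Hochberg adjustment within each comparison, two-sided, and calls at 0.05. It was tested on simulated data. Counts and figures used Python 3.11.15, pandas 2.3.3 and matplotlib 3.10.9. The number of arrays limits the precision (median standard error 0.14). Members, the 12 lists and rules were chosen with earlier results of these data known. TEX19 was not tested. The rule named every member, up to 4 other genes a list by smallest p in MMS1, and list genes that passed in RPMI8226. It also named 3 genes on either side of TEX19 and the 8 closest profiles. For the plasma cell and erythroid lists the choice by p in MMS1 was not kept, and genes were named as examples of level. Of the somatic testis cell and trophoblast lists only counts are given. Same-numbered arrays were not paired: residuals of 18 such pairs correlated between -0.07 and 0.06. Alternatives were quantile normalization, brighter probe sets only, replicate block, array weights, only the groups compared, the mean over probe sets and leaving out each array.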

Additional observations from a re-analysis of the deposited data

Results flagged for a closer look

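In TEX19 the 3 arrays with the miR-16 sponge moved down in MMS1 and up in RPMI8226, a difference of 5.88 on the log2 scale (RPMI8226 change minus MMS1 change); this difference was not tested, because TEX19 was chosen on it. Among the members, neighbours and germline, pluripotency and silencing genes named here, and HBZ, 14 further genes passed limma's interaction test. Their differences are given in the same direction. Over all probe sets 2786 passed that test, or 5.10%. All of the 14 but CD7 and HBZ were named for a small p in MMS1, and the difference contains the MMS1 change. The number of genes and their split by direction were thus favoured by the choice and are a description. The sponge effect was larger on the RPMI8226 side for MEIOC (2.63), PASD1 (2.38), TEX11 (2.03), SYCE1 (1.89), HBZ (1.92), RING1 (0.86) and SYCE2 (0.74), which all fell in MMS1. It was smaller for ZFP42 (-2.42), MAGEC2 (-2.04), MAGEB1 (-1.15), TFAP2C (-1.03), CBX3 (-0.90), CD7 (-0.72) and PIWIL1 (-0.56), which all rose in MMS1. Their adjusted p ran from 1.06e-06 for MAGEC2 to 0.0480 for PIWIL1. In RPMI8226 0 of the 14 passed on their own.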

How the results depend on the processing

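The TEX19 change stayed between -4.18 and -4.11 in MMS1 and between 1.71 and 1.85 in RPMI8226 under 18 alternatives each. Leaving out each array in turn, the 9 other members had 0 to 1 calls in MMS1, 0 to 1 between sponge arrays of the lines, and 0 in RPMI8226, in the difference of effects and between control arrays. The MMS1 call, PRAME, gave 0 calls with the replicate block (adjusted p = 0.0538) and with only the MMS1 arrays (adjusted p = 0.114), and among brighter probe sets 1 member, SYCP3, passed between the sponge arrays (adjusted p = 0.0195). Of the further germline genes 4 to 5 rose and 7 to 10 fell in MMS1 without single arrays, and among brighter probe sets 1 passed as lower in RPMI8226.

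Over all probe sets, leaving out single arrays gave 1565 to 2236 higher and 2056 to 3845 lower in MMS1, 7 to 84 and 14 to 639 in RPMI8226, 690 to 1242 and 1079 to 1813 in the difference, 3761 to 5365 and 3144 to 4180 between sponge arrays, and 1763 to 3571 and 901 to 1808 between control arrays. In RPMI8226 the main 13 higher and 94 lower became 180 and 1088 among brighter probe sets, 7 and 25 with the replicate block, 69 and 455 with array weights, and 6 and 2 with only its own arrays. With only the groups compared, MMS1 gave 2172 lower and the sponge arrays of the lines 3515 higher; among brighter probe sets the difference gave 1742 higher. Quantile normalization changed the split between control arrays of the lines to 2734 higher and 2196 lower, against 2974 and 1491. The causes were not tested. Replicate numbers did not pair the arrays. Of 2705 values for single genes under the alternatives, 47 lost a call, 7 gained one and 0 called values reversed; 3 without a test moved by more than 1 SD, and 94 estimates that passed under neither setting changed sign. TEX19 and 6 other members rest on 1 probe set each.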
